A study of Arabidopsis thaliana with 6 samples.

Results

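Beta carbonic anhydrases are zinc enzymes that interconvert carbon dioxide and bicarbonate, and Arabidopsis thaliana has a small family of them, BCA1 to BCA6. All 6 were measured, as 6 of 27827 features on the array, and were found by their locus codes: BCA1 is feature AT3G01500_at, BCA2 AT5G14740_at, BCA3 AT1G23730_at, BCA4 AT1G70410_at, BCA5 AT4G33580_at and BCA6 AT1G58180_at. The reference gene table (RefSeq, assembly TAIR10.1) names all 6 as beta carbonic anhydrases, with BCA1 and BCA2 under the symbols CA1 and CA2. BCA3, BCA4 and BCA6 lie on chromosome 1, BCA1 on chromosome 3, BCA5 on chromosome 4 and BCA2 on chromosome 5. The family was chosen by name, with the intensities of BCA3 in both genotypes on these arrays already known, so the values of the 6 genes in that comparison are given as a description, without a test.

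The samples were sorted mature pollen grains of the ecotype Columbia 0, taken from wild-type plants and from plants labelled as NOT1+/- mutants, with 3 biological replicates of each genotype and about 300000 grains per sample. NOT1 is the scaffold protein on which the CCR4-NOT deadenylase complex is built; that complex removes poly(A) tails and so starts mRNA decay. A heterozygous plant sheds grains with and without the mutant allele, so each NOT1+/- sample was a mixture of both, and the kind of mutation is not given in the labels. Total RNA, 100 ng per sample, was amplified and read on a 1-colour Affymetrix array whose probes span each transcript. The deposited table gives a linear intensity for each locus on each array, in arbitrary units.

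In plants the carbonic anhydrases supply carbon dioxide or bicarbonate to the enzymes that need one form or the other, and take part in pH balance. The beta family is best known from leaves, where BCA1 in the chloroplast and BCA2 in the cytosol are abundant proteins, while BCA3 is a cytosolic enzyme, BCA4 is found at the plasma membrane, BCA5 in the chloroplast and BCA6 in mitochondria. BCA1 and BCA4 act in guard cells, where they are needed for the closing of stomata in response to carbon dioxide. Other carbonic anhydrases belong to the unrelated alpha and gamma families, and the gamma proteins are part of complex I of the mitochondrial respiratory chain.

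The arrays of one genotype resembled each other more than those of the other genotype: log2 values over all features correlated at 0.926 to 0.952 between wild-type arrays, at 0.965 between NOT1+/- arrays and at 0.836 to 0.90 between genotypes. Wild-type replicate 3 stood apart from the other arrays on the second principal component, which held 14.2% of the variance. Array medians lay between 12.03 and 13.13 units and the smallest value was 1 on each array. The bright end differed by genotype: the 95th percentile was 133 to 141 units on wild-type arrays and 193 to 202 on NOT1+/- arrays. There were no detection calls, so a value near the median cannot be called present or absent. The labelled cell type was checked on 10 pollen genes, whose summed level was 7234 to 8072 units in wild type and 10212 to 10913 in NOT1+/-. Of these 6 were called higher and 0 lower, beside 8.84% and 3.22% of all features. The largest log2 fold changes were those of the transcription factors AGL65 (1.69), AGL104 (1.61) and DUO1 (1.08) and the pectin methylesterase PPME1 (1.09). After quantile normalization they were 1.18, 1.002, 1.002 and 0.93. The 4 uncalled genes were HAP2 (0.31), VGD1 (0.09), MYB97 (-0.24) and ANX2 (-0.29), named after their values were seen. The NOT1 transcript (AT1G02080) had 48.5 ± 2.20 units in wild type and 31.0 ± 2.11 in NOT1+/- (SD, n = 3 arrays each), a log2 fold change of -0.65 (SE 0.15, limma adjusted p = 0.0295, not called when any 1 array was left out, adjusted p 0.0527 to 0.118, or after median centring, 0.0546).

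In wild-type pollen none of the 6 beta carbonic anhydrases was bright. Their 18 values lay between 5.43 and 23.4 units, and 4, 3 and 2 of the 6 genes were above the array median in replicates 1, 2 and 3. In NOT1+/- pollen BCA3 had become one of the brighter features of the array, and the other 5 genes still lay between 7.29 and 21.2 units. Only BCA3 had genotypes that did not overlap, which is 1 of 6 genes, against 31.8% of all features in either direction and 14.9% with NOT1+/- wholly above wild type. In the limma fit over all features, which called 12.1% of them in either direction and 8.84% higher, 1 of the 6 genes passed the threshold, BCA3, as was known when the family was chosen, and nothing is read from that count. The median log2 fold change of the 6 genes was 0.18, beside -0.10 over all features.

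**Figure D1:**
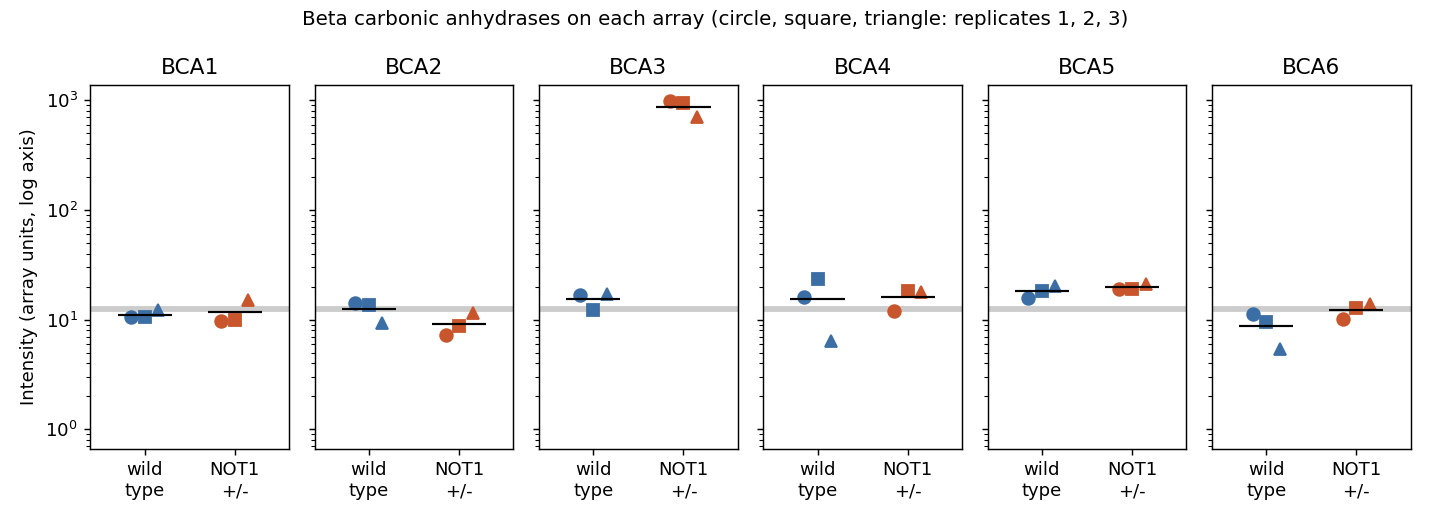
Intensity (array units, log axis) of the 6 beta carbonic anhydrases on each array, with wild type in blue and NOT1+/- in red; circles, squares and triangles are replicates 1, 2 and 3, black bars are group means and the grey band spans the 6 array medians, 12.03 to 13.13. BCA3 stands at 707 to 977 units on the NOT1+/- arrays, while the other genes stay at or below 23.4 units on every array.

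BCA3, a cytosolic member of the family, had 16.8, 12.3 and 17.2 units on wild-type arrays 1, 2 and 3, and 977, 945 and 707 units on NOT1+/- arrays 1, 2 and 3. The wild-type values straddled the array medians, and every NOT1+/- value was far above every wild-type value: the lowest was 41.1 times the highest of wild type. The means were 15.4 ± 2.73 and 877 ± 147 units (SD, n = 3 arrays each). This is a log2 fold change of 5.83 (SE 0.21, 95% interval 5.34 to 6.32), or 56.9-fold (40.6 to 79.9). The size depended on how values near the background were treated, since adding 16 units before log2 gave 4.82, or 28.2-fold. It was 5.92 without wild-type replicate 3, the array that stood apart.

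The place of BCA3 among the other features does not depend on the scaling of an array. In wild type 63.9%, 45.8% and 67.5% of features had a lower value than BCA3 in replicates 1, 2 and 3. In NOT1+/- these shares were 98.9%, 98.8% and 98.4%, and BCA3 was the 313th, 330th and 438th brightest feature. Of 17146 other features with a wild-type mean no higher than that of BCA3, 2 reached a NOT1+/- mean at least as high. Both limits were set by BCA3 itself, so few features could pass them. By log2 fold change alone BCA3 ranked 10th among all features.

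**Figure D2:**
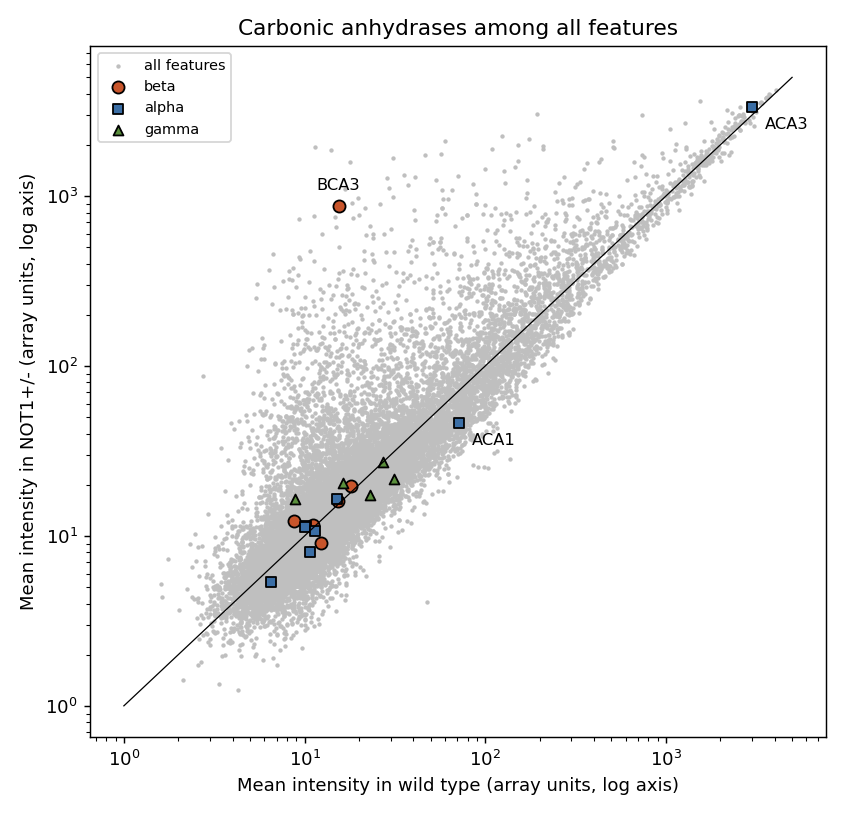
Mean intensity of each feature in wild type (x axis) and NOT1+/- (y axis), both in array units on log axes, with the line of equal means; grey points are all 27827 features, and carbonic anhydrases of the beta, alpha and gamma families are marked. BCA3 lies far above the line at 15.4 and 877 units, the other beta genes lie among the dim features, and ACA3 lies near the upper end of both axes.

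BCA3 was lowest on NOT1+/- array 3. The same array was the lowest of the 3 for 1908 of the 2461 features called higher, or 77.5%, so the lower value was shared with most of the genes that rose. Without NOT1+/- replicate 3 the log2 fold change of BCA3 was 5.98. In a bulk sample, a change in the number of grains that express a gene and a change of its RNA per grain cannot be told apart.

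BCA1, the chloroplast enzyme that is abundant in leaves and is also known as a salicylic acid binding protein, had 10.5, 10.6 and 12.2 units in wild type and 9.63, 9.98 and 15.2 in NOT1+/-. The 3 wild-type values were below the array medians, and the NOT1+/- values spread to both sides of them, so the genotypes overlapped. This gave a log2 fold change of 0.04 (SE 0.21, 95% interval -0.46 to 0.54). It was -0.06 after centring on the 75th percentile and -0.17 without NOT1+/- replicate 3, the array with the highest value, so BCA1 has no settled direction here.

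BCA2, its counterpart in the cytosol of leaf cells, had 14.2, 13.7 and 9.25 units in wild type and 7.29, 8.67 and 11.4 in NOT1+/-. It was the member with the lowest fold change, but wild-type replicate 3 lay within the NOT1+/- range. The means were 12.4 ± 2.72 and 9.13 ± 2.11 units (SD, n = 3 arrays each), with a log2 fold change of -0.44 (SE 0.24, 95% interval -1.003 to 0.13). This interval does not show that BCA2 was the same in both genotypes.

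BCA4, the plasma membrane enzyme that works with BCA1 in guard cells, was the least reproducible member in wild type. Its values were 16.2, 23.4 and 6.43 units in wild type and 11.9, 18.2 and 17.8 in NOT1+/-. The wild-type values spread over a wider range than the NOT1+/- values and enclosed all of them. The SD between wild-type arrays was 0.96 log2 units for BCA4, against 0.12 for BCA1 and 0.18 for BCA5. The log2 fold change of 0.22 (SE 0.45, 95% interval -0.82 to 1.26) became -0.31 without wild-type replicate 3, which held the lowest value, so its sign rests on that array.

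BCA5, a chloroplast member, had the narrowest range of the 6 in NOT1+/-. It had 15.7, 18.3 and 20.3 units in wild type and 19.2, 18.8 and 21.2 in NOT1+/-, and the genotypes overlapped. All 6 values lay above the medians of their arrays. The log2 fold change was 0.13 (SE 0.17), and its 95% interval of -0.25 to 0.52 was the narrowest among the members.

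BCA6, the mitochondrial member, had 11.2, 9.53 and 5.43 units in wild type and 10.2, 12.7 and 14.0 in NOT1+/-. Replicate 1 of wild type lay inside the NOT1+/- range, and the other 2 wild-type values lay below it. The means were 8.71 ± 2.95 and 12.3 ± 1.94 units (SD, n = 3 arrays each), with a log2 fold change of 0.55 (SE 0.29, 95% interval -0.12 to 1.21). Without wild-type replicate 3, which held the lowest value, it was 0.24.

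Wild-type replicate 3 held the lowest wild-type value of BCA2, BCA4 and BCA6 and the highest of BCA1, BCA3 and BCA5. Whether these values go with its place on the second principal component was not tested. The part of this array in them was looked at only by leaving it out. The order of the members by intensity changed from array to array among the dim genes. Intensities of different probe sets are not calibrated against each other, so that order says nothing of the relative amount of the 6 transcripts. The array gives 1 value per locus, while the reference table lists 2 transcripts for BCA3, 3 each for BCA4 and BCA5, 4 for BCA1, 7 for BCA6 and 9 for BCA2, and these could not be separated. No other feature shared all 6 values with a member.

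Ratios between 2 members on the same array do not depend on a single scale factor per array, though quantile normalization can change them. The log2 ratio of BCA3 to each of the other 5 genes lay between -0.93 and 1.67 on wild-type arrays and between 5.06 and 7.07 on NOT1+/- arrays. The genotypes were apart in all 5 ratios, with mean differences between 5.28 (against BCA6) and 6.27 (against BCA2). All 5 share BCA3, whose rise was known when the family was chosen, so they restate that rise and nothing further is read from them. Among the 10 ratios without BCA3 the genotypes were apart in 1, that of BCA2 to BCA6, beside 31.8% of single features, and nothing is read from it. The ratios do not show that any member was unaltered.

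The other families of carbonic anhydrase were set beside the beta genes from lists of loci. Of 8 alpha genes 0 were called higher and 1 was called lower, and of 5 gamma genes 1 was called higher and 0 lower, beside 8.84% of all features called higher and 3.22% called lower. The median log2 fold changes were 0.04 and 0.02. No alpha or gamma gene had a change near the size of that of BCA3: their log2 fold changes lay between -0.66 and 0.91.

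**Figure D3:**
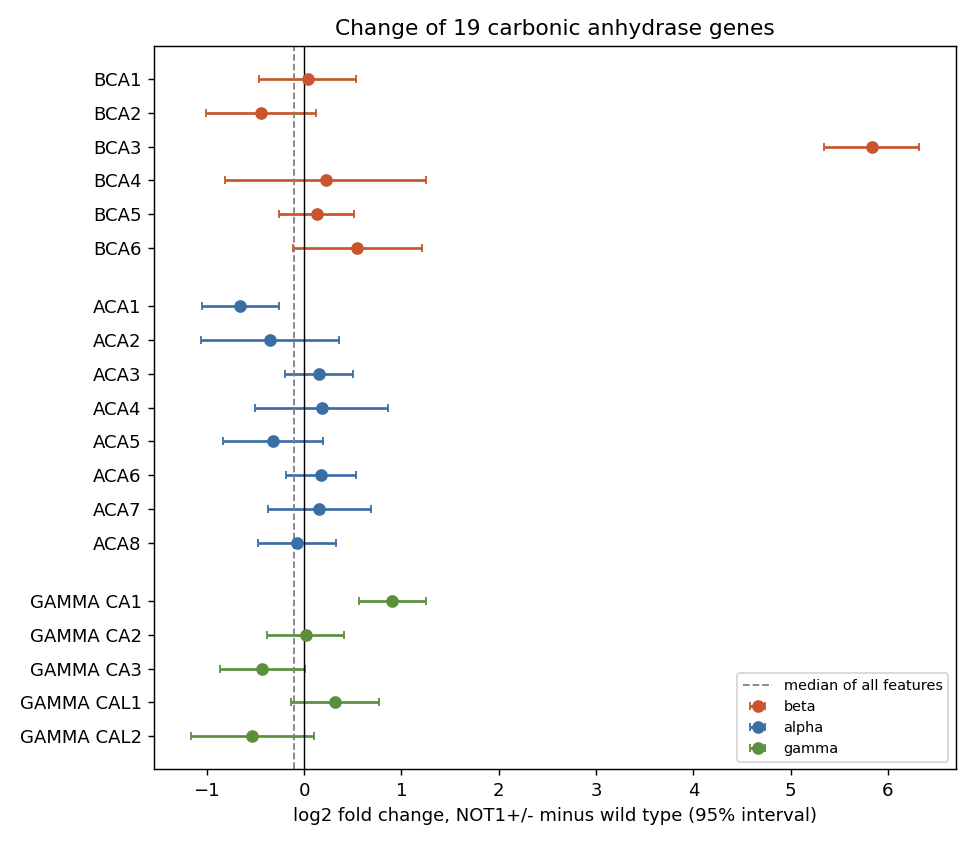
Log2 fold change (NOT1+/- minus wild type, x axis) with its 95% interval for 19 carbonic anhydrase genes, 6 beta, 8 alpha and 5 gamma; the solid line marks no change and the dashed line the median of all features, -0.10. BCA3 stands alone at 5.83, and all other estimates lie between -0.66 and 0.91.

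The alpha gene ACA3 (AT5G04180) had values near the top of the array in both genotypes. They were 3123, 2958 and 2906 units in wild type and 3348, 3093 and 3568 in NOT1+/-. All 6 arrays were high and the genotypes overlapped. Its log2 fold change was 0.15 (SE 0.15, limma adjusted p = 0.575). ACA1 (AT3G52720), an enzyme that reaches the chloroplast through the secretory pathway, had 74.3, 71.0 and 70.4 units in wild type and 44.6, 39.7 and 53.6 in NOT1+/-. It fell by 0.66 on the log2 scale (SE 0.17, limma adjusted p = 0.0446), a call that ended with median centring (0.0751) and when any array but NOT1+/- replicate 3 was left out (0.0838 to 0.149). ACA2 and ACA4 to ACA8 lay between 3.85 and 17.8 units in both genotypes.

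The gamma carbonic anhydrase GAMMA CA1 (AT1G19580) had 8.90, 9.41 and 8.29 units in wild type and 16.7, 17.0 and 16.1 in NOT1+/-. The NOT1+/- values were all above the wild-type values, and the spread within each genotype was small. It rose by a log2 fold change of 0.91 (SE 0.15, limma adjusted p = 0.00566). The wild-type values were below the array medians, so the size is uncertain, and with 16 units added before log2 it was 0.39. The other 4 gamma genes, GAMMA CA2, GAMMA CA3, GAMMA CAL1 and GAMMA CAL2, lay between 14.09 and 38.6 units, with log2 fold changes from -0.53 to 0.32 that did not pass the test.

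BCA3 was also set beside enzymes that use bicarbonate or release carbon dioxide, the substrates of the family. Of 14 genes for bicarbonate-using enzymes 5 were called higher and 0 lower, with a median log2 fold change of 0.49. That list counts subunits as separate genes, whether or not the subunit itself binds bicarbonate. Of 12 decarboxylases that release carbon dioxide 4 were called higher and 1 lower, with a median of 0.19. Over all features these values were 8.84% higher, 3.22% lower and -0.10. Among features the level on the array bears on how often a call is made, and the lists were not matched to other genes on level, so nothing particular to them is drawn from the counts.

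Both phosphoenolpyruvate carboxylases that rose, PPC3 and PPC4, make oxaloacetate from bicarbonate. PPC3 had 11.4, 17.5 and 18.1 units in wild type and 81.4, 76.1 and 48.0 in NOT1+/-, with a log2 fold change of 2.12 (SE 0.27) and a limma adjusted p of 0.00159. PPC4, of the bacterial type, had 90.5, 92.9 and 97.3 units in wild type and 316, 319 and 209 in NOT1+/-. Its log2 fold change was 1.56 (SE 0.20), with a limma adjusted p of 0.00174, and 1.05 after quantile normalization. In both genes NOT1+/- array 3 was the lowest of the 3, as it was for 77.5% of all features called higher. PPC1 and PPC2, named after their values were seen, had log2 fold changes of -0.18 and -0.24 and did not pass. MCCB, a subunit of the mitochondrial methylcrotonyl-CoA carboxylase of leucine breakdown, had a log2 fold change of 1.78 (SE 0.20), and CARA, the small subunit of carbamoyl phosphate synthetase, 1.71 (SE 0.24). MCCA, the partner subunit of MCCB, was the fifth call at 1.32 (SE 0.16) and is named after its value was seen. CARB, the large subunit that pairs with CARA, had 0.34, did not pass and is also named after its value was seen. With 16 units added before log2 the estimates of PPC3, MCCB and CARA, which were dim in wild type, were 1.40, 0.98 and 0.92.

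Among the decarboxylases NADP-ME3, a cytosolic malic enzyme, had 36.0, 25.3 and 44.5 units in wild type and 379, 349 and 331 in NOT1+/-, with a log2 fold change of 3.36 (SE 0.23) and a limma adjusted p of 5.47e-05. PDC1, a pyruvate decarboxylase of ethanol fermentation, had 2.30 (SE 0.36), PCK2, a phosphoenolpyruvate carboxykinase, 1.90 (SE 0.18), and NAD-ME2, a mitochondrial malic enzyme, 0.71 (SE 0.16, limma adjusted p = 0.0259). With 16 units added PDC1, dim in wild type, had 1.32. The call of NAD-ME2 ended after quantile normalization (adjusted p = 0.181) and when any array but NOT1+/- replicate 3 was left out (0.0545 to 0.107). NADP-ME4, the plastid malic enzyme, had 122, 116 and 120 units in wild type and 61.6, 58.0 and 75.01 in NOT1+/-. It fell by 0.89 on the log2 scale (SE 0.16, limma adjusted p = 0.0104), but was not called without NOT1+/- replicate 1 or 2 (0.0515 and 0.0517). Of the 9 genes called higher in the 2 lists, 8 were lowest on NOT1+/- array 3, beside 77.5% of all features called higher, so nothing is read from this count.

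**Figure D4:**
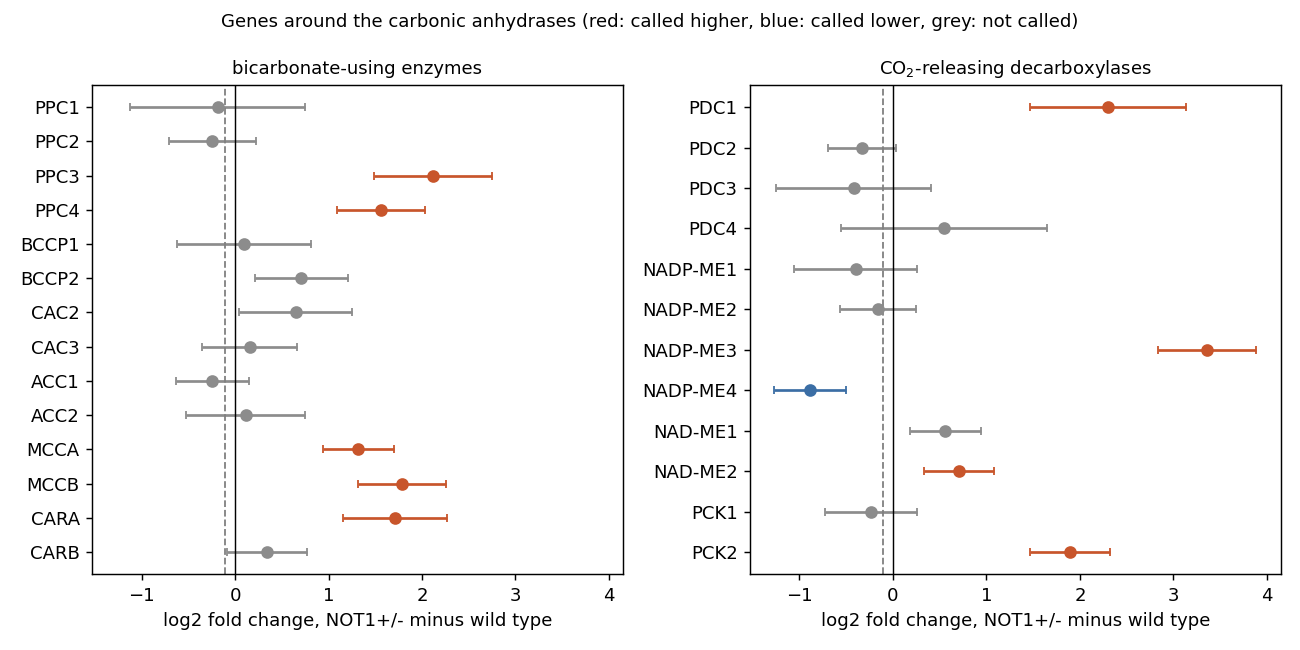
Log2 fold change (NOT1+/- minus wild type, x axis) with its 95% interval for 14 genes of bicarbonate-using enzymes, subunits included (left), and 12 decarboxylases (right). Red genes were called higher, blue genes lower and grey genes were not called, and the dashed line is the median of all features. The rises reach 2.12 on the left (PPC3) and 3.36 on the right (NADP-ME3), below the 5.83 of BCA3.

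Genes linked to the response of stomata to carbon dioxide, in which BCA1 and BCA4 take part, were mostly dim in pollen (the guard cell list). Of 11 such genes 1 was called higher and 1 lower, beside 8.84% and 3.22% of all features, and all values lay between 3.86 and 44.9 units. MPK12, a protein kinase, had a log2 fold change of 2.18 (SE 0.31, limma adjusted p = 0.00259) from a wild-type mean of 6.10 units, and 0.93 with 16 units added. ALMT12, an anion channel, had -0.89 (SE 0.23, limma adjusted p = 0.0465), a call that ended with quantile normalization (0.0519) and median centring (0.0514), and without any 1 array other than wild-type replicate 3 (0.0961 to 0.146).

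As BCA1 and BCA2 are abundant in green tissue, photosynthesis genes were measured beside them. The summed level of 14 such genes was 115 to 140 units in wild type and 85.6 to 100.5 in NOT1+/-, and no single value exceeded 20.3 units. None was at 0, since the smallest value of the arrays is 1. None of the 14 was called higher, and LHCA1 and CAB2 were called lower (limma adjusted p = 0.0445 and 0.0449), with 0 calls after quantile normalization or median centring and 0 or 1 when any 1 array was left out. Of 6 floral organ genes 0 were called higher and 1, SHP1, lower (limma adjusted p = 0.0495), with 0 calls after those settings and when any array but NOT1+/- replicate 3 was left out; their summed level was 58.6 to 68.0 units in wild type and 54.2 to 66.2 in NOT1+/-. Over all features 8.84% were called higher and 3.22% lower. The summed level of the pollen genes, by contrast, was higher in NOT1+/-, as given above. Bright genes weigh most in that sum: the mean of PPME1 went from 1269 to 2705 units. Of the 10 pollen genes 6 were called higher and 4 were not called, with MYB97 and ANX2 lower. The part of the higher sum in the rise of BCA3 was not tested.

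The neighbours of the 6 genes in chromosomal order were measured as well. Among the 5 measured protein-coding genes on each side of BCA3, 1 of 10 was called, beside 12.1% of all features, and it was the outermost, AT1G23780. It had 12.7, 12.0 and 4.34 units in wild type and 89.6, 91.8 and 69.8 in NOT1+/-, with a log2 fold change of 3.26 (SE 0.40) and a limma adjusted p of 0.00121. It is named after its value was seen. The 9 others had log2 fold changes between -0.77 and 0.78. Over the 60 neighbours of the 6 genes 4 were called higher and 2 lower, near the 12.1% of all features called. The adjoining gene on one side of BCA1, AT3G01490, encodes the protein kinase CBC1 of the guard cell list, and had a log2 fold change of -0.28 that did not pass; it too is named after its value was seen.

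The features whose profile was most like that of BCA3 were AT4G10603, AT1G66360, SCRL27, AT5G01760 and AT3G29040. Likeness was the root mean square difference of log2 values, each relative to the wild-type mean of its own feature, over the 6 arrays, and it was 0.187 to 0.223 log2 units for these 5. AT3G29040 had 13.1, 16.4 and 17.4 units in wild type and 980, 999 and 696 in NOT1+/-. In wild type it was dim and in NOT1+/- bright, with the lowest NOT1+/- value on array 3. AT4G10603 went from 18.3 ± 1.73 to 908 ± 89.1 units and SCRL27, a cysteine-rich peptide gene, from 5.46 ± 1.95 to 305 ± 13.4 (SD, n = 3 arrays each). The profile was chosen for its rise, so the features like it had to rise as well.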

How the data were processed

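Per the labels' protocols, pollen was washed from open flowers, sorted by flow cytometry and profiled on 1-colour Affymetrix array strips. The deposited table holds intensity values, linear and not logged, for 27827 features. The submitters' processing notes name Affymetrix Expression Console; how it was run (version, summarisation, background, scaling) was not given in the sources used here. Here log2 values, unfiltered and with no offset, were fitted with limma 3.58.1 (R 4.3.3; lmFit, then eBayes with neither trend nor robust) over all features. P-values were adjusted over all 27827 features by Benjamini-Hochberg, and features under an adjusted p of 0.05 were called. A fold change is the ratio of geometric means, while each group's level is its arithmetic mean ± SD over 3 arrays. The number of arrays limits the precision. There were no detection calls, strip numbers or scan dates to use as filters or batches. The fit was tested on simulated data. The members, the 8 gene lists and the tests were chosen with earlier results of these data known. Genes named are NOT1, the 6 members, all alpha and gamma genes, up to 4 calls per list and direction, and the 5 features most like the member that changed most; others are said to be named after their values were seen. Gene names and gene order come from the RefSeq table of TAIR10.1, which holds 27241 of the features. Alternatives tried were a block for replicate number, trend and robust eBayes, array weights, 3 scalings, a filter on dim features, 16 units added before log2, and leaving out each array. Figures were drawn with matplotlib 3.10.9.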

Additional observations from a re-analysis of the deposited data

How the results depend on the processing

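Over the 14 alternatives the log2 fold change of BCA3, whose rise was known when the family was chosen, lay between 4.82 and 5.98; the filter on dim features left out BCA1, BCA2 and BCA6. The sign turned for BCA1 after centring on the 75th percentile (-0.058) and without NOT1+/- replicate 3 (-0.17; 0.16 at most without 1 array) and for BCA4 without wild-type replicate 3 (-0.31; 0.62 at most). BCA2, BCA5 and BCA6 kept their sign. Among uncalled alpha and gamma genes it turned for ACA8 (0.0058 after quantile normalization, 0.0037 after median centring, -0.18 to 0.025 without 1 array), for GAMMA CA2 (-0.16 after quantile normalization, -0.079 after centring on the 75th percentile, and -0.050 to 0.11 without 1 array), and without 1 array for ACA4 (-0.098 to 0.38) and ACA7 (-0.089 to 0.29). The alpha fall was lost with the replicate block and with median centring (0 calls each), and there were 0 to 1 without 1 array. The gamma rise gave 0 calls with the filter on dim features, which removes GAMMA CA1 from the test. The decarboxylase fall gave 0 to 1 calls without 1 array. In the guard cell list 1 or 2 genes were called higher and 0 to 2 lower, and 1 floral organ gene was called higher with the filter on dim features. Calls over all features numbered 3357, of which 73.3% were higher; quantile normalization gave 52.5% and centring on the 75th percentile 60.2%, and there were 2080 and 2169 calls without NOT1+/- replicates 1 and 2. The scaling of the arrays moved the median of all features between -0.20 and -0.026. The deviations of same-numbered arrays from their group means correlated at 0.11, 0.13 and -0.013 for replicates 1, 2 and 3. Those of replicates 1 and 2 lay above the values for arrays of unequal number, -0.21 to 0.093. Equal replicate numbers share no stated source, so they were not taken as pairs in the main fit. The replicate block gave 2718 calls and left the log2 fold change of BCA3 at 5.83. NOT1, ALMT12, NAD-ME2, CAB2 and SHP1 were not called with the block. Signal near the array medians limits what can be said of the dim members.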

Other observations

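The list of genes for bicarbonate-using enzymes holds both subunits of methylcrotonyl-CoA carboxylase and of carbamoyl phosphate synthetase. A call for a subunit is not read as a change in the use of bicarbonate. MCCA and MCCB, both called higher, had log2 fold changes of 1.32 and 1.78, while CARA was called higher at 1.71 and CARB, at 0.34 (SE 0.18), was not called; the difference between CARA and CARB was not tested. CARB had 10.7, 9.03 and 8.61 units in wild type and 13.9, 10.1 and 12.1 in NOT1+/-, with overlapping genotypes. Its wild-type values were all below the array medians, and its NOT1+/- values lay on both sides of them.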
